A study of Mus musculus with 6 samples.

Results

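Genes of steroid metabolism, bisphenol A handling and membrane estrogen sensing were followed in the fetal mouse cerebral cortex. The set comprised 9 genes chosen by name, Cyp19a1, Gper1, Hsd17b4, Hsd17b10, Hsd17b12, Srd5a1, Srd5a3, Sult1a1 and Gusb, and each was taken as the row of the deposited count table with exactly that symbol, out of 45583 rows. RNA sequencing had been performed on the cortex of 6 male fetuses of the Cyp19-EGFP strain at GD15.5 (gestational day), all labelled wild type and Sry positive, with 1 library for each fetus. For 3 fetuses the dam had been injected under the skin with bisphenol A (BPA, a plastic monomer with estrogenic activity), at 50 µg/kg a day between GD10.5 and GD14.5, and for the other 3 with peanut oil as vehicle. Cyp19-EGFP mice, kept on the FVBN background per the study's methods, are an aromatase reporter line in which a Cyp19a1 transgene drives green fluorescent protein. The labels give a different fetus for each library but no dam, so the p-values measure the spread between these fetuses, some of which may be littermates.

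Steroid hormones reach a tissue from the blood or are made and converted within it. Aromatase, encoded by Cyp19a1, turns androgens into estrogens, and in the rodent brain it is known from small groups of neurons, above all in the amygdala, hypothalamus and preoptic area. Hydroxysteroid dehydrogenases interconvert weak and strong steroids, and steroid reductases make dihydrotestosterone and the precursors of neurosteroids, although several enzymes named for steroids also have a second, more general role in lipid metabolism. BPA itself is cleared by coupling to glucuronic acid or sulfate, and beta-glucuronidase can release the free compound again.

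Library totals ranged from 3444601 to 7180835 counts, with the smallest total in BPA replicate 3. A count of 3, taken here as the floor below which a level is not detectable, corresponded to 0.422 to 0.875 CPM, the count scaled to a library of 1e+06 counts. Summed CPM of 8 cortical neuron markers ranged from 3275 to 3659 in vehicle and from 3446 to 3656 in BPA, so that genes of the labelled tissue were abundant in every library. Summed CPM of 9 ventral telencephalon markers did not overlap between the groups, with 994 to 1139 in vehicle and 869 to 952 in BPA. Each of the 9 was lower in BPA, with log2 fold changes from -1.34 to -0.085 and a median of -0.22. Of them, 4 had an unadjusted p under 0.05 by edgeR's quasi-likelihood test, against 2.2% of all genes tested. The groups did not overlap for 6 of them, against 6.75% of all genes tested. At the adjusted threshold of 0.1, 0 of them passed the same edgeR test. The marker lists were chosen with earlier results of these data known. Summed CPM of 7 choroid plexus markers was high in vehicle replicate 2 (231) and BPA replicate 2 (364) and ranged from 16.2 to 25.1 in the other 4 libraries. Sums for microglia, endothelial, pericyte and meningeal, and red blood cell markers overlapped between the groups, and each marker of the 8 lists had more than 3 counts in at least 1 library. The part of these differences in the values below was not tested.

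The start regions of these genes differed in their content of CpG dinucleotides, the sites at which DNA methylation occurs and which the study followed at the human brain promoter of aromatase. RefSeq windows on GRCm38.p6, covering 250 bases before to 50 bases after a transcription start, were held for 8 of the 9 genes. Over all 32851 such windows the median was 7 CpG, with quartiles of 3 and 20. Cyp19a1 had 3 annotated starts with 6, 6 and 2 CpG, Sult1a1 had 0, and Gper1 and Gusb had 6 each. Hsd17b10 had 15, Hsd17b12 23, Srd5a1 24 and Srd5a3 26. Of these, 6 windows are shown, written 5′ to 3′ on the strand of the gene with each CpG in capitals: the 3 starts of the aromatase gene, the membrane receptor gene, and the windows with the fewest and the most CpG.
Cyp19a1 start 1, chr9:54268115-54268414, minus strand: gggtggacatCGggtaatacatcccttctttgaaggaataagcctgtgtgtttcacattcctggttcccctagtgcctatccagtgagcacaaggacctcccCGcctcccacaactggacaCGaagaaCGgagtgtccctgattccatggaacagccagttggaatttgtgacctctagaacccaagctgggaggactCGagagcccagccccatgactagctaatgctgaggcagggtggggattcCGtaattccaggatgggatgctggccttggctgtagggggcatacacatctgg
Cyp19a1 start 2, chr9:54228865-54229164, minus strand: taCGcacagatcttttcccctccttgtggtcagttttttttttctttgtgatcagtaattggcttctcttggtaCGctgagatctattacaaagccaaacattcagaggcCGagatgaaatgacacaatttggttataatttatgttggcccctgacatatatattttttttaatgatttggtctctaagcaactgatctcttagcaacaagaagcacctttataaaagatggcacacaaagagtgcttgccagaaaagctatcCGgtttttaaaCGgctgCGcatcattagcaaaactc
Cyp19a1 start 3, chr9:54193694-54193993, minus strand: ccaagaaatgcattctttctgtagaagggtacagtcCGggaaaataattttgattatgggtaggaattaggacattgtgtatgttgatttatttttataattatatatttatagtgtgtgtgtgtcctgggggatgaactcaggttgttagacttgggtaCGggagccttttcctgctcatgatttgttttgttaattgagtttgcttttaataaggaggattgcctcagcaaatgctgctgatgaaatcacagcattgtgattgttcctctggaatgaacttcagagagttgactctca
Gper1, chr5:139422929-139423228, plus strand: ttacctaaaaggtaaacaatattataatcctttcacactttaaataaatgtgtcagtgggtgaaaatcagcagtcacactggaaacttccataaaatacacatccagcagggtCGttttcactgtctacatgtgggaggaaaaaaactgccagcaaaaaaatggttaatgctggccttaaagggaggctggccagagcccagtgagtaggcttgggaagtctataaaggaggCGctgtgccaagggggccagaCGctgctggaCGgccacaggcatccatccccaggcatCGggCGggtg
Sult1a1, chr7:126676369-126676668, minus strand: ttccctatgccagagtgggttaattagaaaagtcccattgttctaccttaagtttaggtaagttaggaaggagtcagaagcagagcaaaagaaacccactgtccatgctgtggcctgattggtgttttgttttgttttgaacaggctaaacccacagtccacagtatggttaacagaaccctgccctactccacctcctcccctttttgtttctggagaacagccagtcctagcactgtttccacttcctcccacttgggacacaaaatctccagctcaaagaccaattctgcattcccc
Srd5a3, chr5:76140023-76140322, plus strand: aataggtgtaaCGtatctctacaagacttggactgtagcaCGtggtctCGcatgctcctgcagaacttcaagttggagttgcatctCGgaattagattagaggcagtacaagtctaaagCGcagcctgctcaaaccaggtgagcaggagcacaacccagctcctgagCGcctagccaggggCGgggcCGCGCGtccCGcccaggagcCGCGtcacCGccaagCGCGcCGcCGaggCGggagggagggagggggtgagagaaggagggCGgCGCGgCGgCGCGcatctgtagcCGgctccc

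The later 2 Cyp19a1 windows lie within the span of the gene and had a GC content of 38.3% and 37.7%, against 54.7% in the first window and 63.3% in the Srd5a3 window. The full estrogen response element, written as GGTCA, any 3 bases and TGACC and therefore alike on both strands, was in 0 of the 10 windows held for these genes and in 0.0700% of all windows. The shorter receptor motif AGGTCA overlaps the full element and was searched on both strands. It was in the first Cyp19a1 window and in 16.3% of all windows. In that Cyp19a1 window it was on the opposite strand, so that the printed sequence holds TGACCT instead. The GC box GGGCGG, on either strand, was in 5 of the windows, those of Gper1, Hsd17b10, Hsd17b12, Srd5a1 and Srd5a3, and in 35.7% of all windows. The letters TATAAA, also searched on both strands, were found in the later 2 Cyp19a1 windows and in the Gper1 window, against 13.6% of all windows. At Cyp19a1 start 3 they were on the opposite strand, so that the printed sequence holds TTTATA instead.

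Detection came before any comparison. Of the 9 genes, 7 had enough counts to pass the filter and be tested, Sult1a1 was detected at a low level, and Cyp19a1 was not detectable. In length-adjusted terms the 3 hydroxysteroid dehydrogenase genes stood above all others, Hsd17b12 at 30.2 CPM per kilobase of merged exons ± 1.17 (SD, n = 6), Hsd17b4 at 28.7 ± 2.88 and Hsd17b10 at 24.8 ± 3.95. These 3 neighbours in the order overlapped in their library values, with Hsd17b12 above Hsd17b4 in 4 of 6 libraries and Hsd17b4 above Hsd17b10 in 5 of 6. A gap of 5.69-fold separated them from Srd5a1 at 4.36 CPM per kilobase ± 0.411 (SD, n = 6), and here the library values did not overlap. Srd5a1 in turn lay above Gper1 (2.41 CPM per kilobase ± 0.495) in every library without overlap. Gper1, Srd5a3 (2.13 ± 0.293) and Gusb (1.64 ± 0.421) overlapped as neighbours, although Srd5a3 exceeded Gusb in 6 of 6 libraries. Sult1a1 at 0.606 CPM per kilobase ± 0.206 (SD, n = 6) lay below Gusb without overlap. The mean for Cyp19a1 was 0.0559 CPM per kilobase, all of it from counts at or below the floor.

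**Figure D1:**
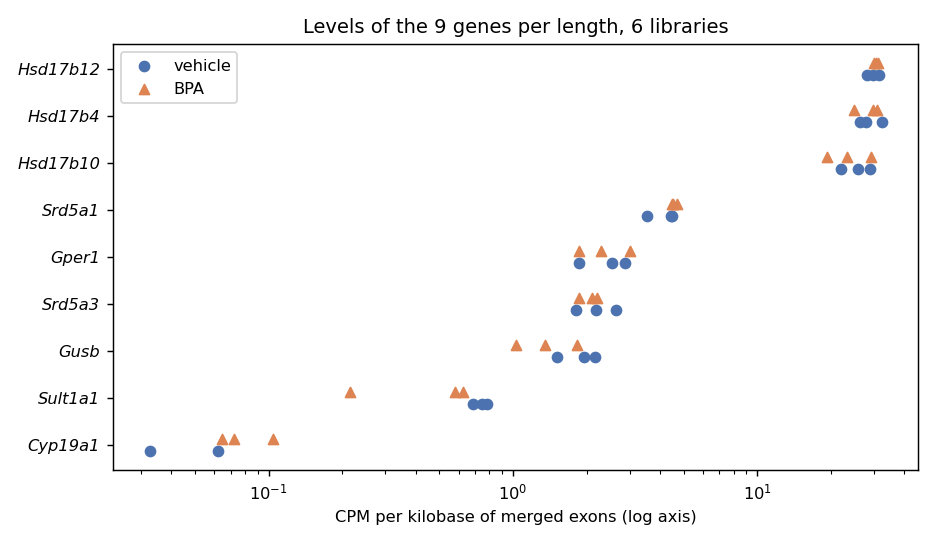
Level of each of the 9 genes per length, as CPM per kilobase of merged exons on a log axis; circles are the 3 vehicle libraries and triangles the 3 BPA libraries, and vehicle replicate 3 is not drawn for Cyp19a1 because its count was 0. The 3 dehydrogenase genes lie between 19.3 and 32.3, and every Sult1a1 and Cyp19a1 value lies below 0.8, the highest being 0.785.

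Aromatase was the enzyme at the centre of the study. Cyp19a1 (ENSMUSG00000032274.9, GRCm38 chromosome 9, 54165937 to 54268110, minus strand) had 1, 2 and 0 counts in the vehicle libraries and 3, 2 and 1 counts in the BPA libraries. Every library was at or below the floor of 3 counts, and no difference was readable at such a depth. On the CPM scale the values were 0.147, 0.282 and 0 in vehicle and 0.471, 0.325 and 0.292 in BPA. These ranges did not overlap, with BPA higher, but they lay next to each other at 0.282 and 0.292 CPM, where 2 counts in a deeper library and 1 count in the shallowest one fall. Among all 23501 genes with at least 1 count, the groups did not overlap for 6.1%, with BPA higher for 3.08%. Pooled over libraries, 3 counts in vehicle gave 0.157 per 1e+06 counts with an exact 95% Poisson interval of 0.0324 to 0.459, and 6 counts in BPA gave 0.376 with an interval of 0.138 to 0.818. The intervals overlapped, and they cover counting error only. No exon of Cyp19a1 overlapped an exon of another gene, and none of its 50-base transcript words occurred in another gene, so its counts were not shared with a copy elsewhere in the annotation. The reporter transgene of the strain carries the same gene sequence, and the labels, which call these fetuses wild type, do not say whether they carried it, so any transcripts from it cannot be told apart here from those of the native gene.

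The membrane receptor Gper1 was present but sparse. Gper1 (ENSMUSG00000053647.4, chromosome 5, 139423151 to 139427800, plus strand) encodes a G protein-coupled receptor that responds to estrogens at cell membranes. Its level was 4.71, 6.48 and 7.30 CPM in the vehicle libraries and 4.71, 7.64 and 5.84 CPM in the BPA libraries, from 20 to 47 counts each. The groups overlapped over nearly their whole range, with the lowest values in vehicle replicate 1 and BPA replicate 1 and the highest in BPA replicate 2. The group means were 6.16 ± 1.32 and 6.06 ± 1.48 CPM (SD, n = 3 each). The log2 fold change was -0.0061 (SE 0.261), with a 95% interval from -0.56 to 0.55, or 0.678- to 1.46-fold (adjusted p = 0.9998, edgeR's quasi-likelihood test). Changes of Gper1 within that range could not be told from none.

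The 17-beta hydroxysteroid dehydrogenases were the most abundant of the enzymes followed. Hsd17b4 (ENSMUSG00000024507.6, chromosome 18, 50128201 to 50196269, plus strand) encodes the peroxisomal bifunctional enzyme, which can inactivate estradiol and also carries out steps of the beta-oxidation of very long and branched fatty acids. It was at 89.9, 110 and 95.2 CPM in vehicle and at 102, 106 and 84.3 CPM in BPA. Vehicle replicate 2 was the highest library and BPA replicate 3 the lowest, and the ranges overlapped. The log2 fold change of Hsd17b4 was -0.011 (SE 0.117, 95% interval -0.26 to 0.24).

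Hsd17b10 (ENSMUSG00000025260.10, chromosome X, 152001845 to 152004442, plus strand) encodes a mitochondrial dehydrogenase of isoleucine breakdown that is also a subunit of mitochondrial RNase P, the enzyme that trims mitochondrial transfer RNAs. Its level was 28.5, 33.6 and 37.5 CPM in vehicle and 30.3, 38.0 and 25.1 CPM in BPA. The BPA group held both the highest and the lowest library, and the log2 fold change was -0.068 (SE 0.156, 95% interval -0.40 to 0.26). Hsd17b12 (ENSMUSG00000027195.10, chromosome 2, 94032689 to 94157964, minus strand) encodes the reductase of the fatty acid elongation cycle, an enzyme of the endoplasmic reticulum that in mice can also reduce estrone to estradiol. It had the smallest coefficient of variation of the 9 genes, at 75.5, 68.0 and 71.6 CPM in vehicle and 75.4, 72.5 and 73.8 CPM in BPA. That coefficient was 3.86% over the 6 libraries, against 4.86% from counting error alone at its mean count. The log2 fold change of Hsd17b12 was 0.044 (SE 0.105, 95% interval -0.18 to 0.27), or 0.883- to 1.203-fold. By edgeR's quasi-likelihood test the adjusted p was 0.9998 for each of the 3 dehydrogenase genes.

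The steroid reductase genes are a pair by name but not by main role. Srd5a1 (ENSMUSG00000021594.11, chromosome 13, 69573449 to 69611442, minus strand) encodes the brain form of the enzyme that makes dihydrotestosterone and dihydroprogesterone. It was at 10.3, 13.0 and 13.0 CPM in vehicle and at 13.7, 13.0 and 13.1 CPM in BPA. Vehicle replicate 1 lay apart below the other 5 libraries, which spanned 13.0 to 13.7 CPM, and the log2 fold change was 0.14 (SE 0.174, 95% interval -0.23 to 0.51). Of its exonic bases, 16.4% lie in exons of Gm17108, a transcript on the same strand that had 0 to 4 counts per library, so that reads there may have been assigned to neither or to either gene. Srd5a3 (ENSMUSG00000029233.15, chromosome 5, 76140271 to 76155504, plus strand) is needed for making dolichol, the lipid carrier on which the sugar chains of glycoproteins are built. It was at 10.1, 8.45 and 12.2 CPM in vehicle and 8.64, 9.75 and 10.2 CPM in BPA. The BPA values fell inside the vehicle range, with a log2 fold change of -0.10 (SE 0.203, 95% interval -0.54 to 0.33). By edgeR's quasi-likelihood test the adjusted p was 0.9998 for both reductase genes.

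Sult1a1 (ENSMUSG00000030711.16, chromosome 7, 126672865 to 126676432, minus strand) encodes a phenol sulfotransferase that can couple sulfate to BPA. It had 7, 8 and 6 counts in vehicle and 6, 2 and 3 counts in BPA, or 1.03, 1.13 and 1.18 CPM against 0.942, 0.325 and 0.875 CPM. On the CPM scale every BPA value lay under the lowest vehicle value, and 2 of the 3 BPA libraries were at or below the floor. Among the genes with at least 1 count, 3.02% had groups that did not overlap with BPA lower. The exact two-sided permutation test gave p = 0.1, the smallest value that 3 libraries against 3 allow. Any such groups without overlap give this value, so it adds nothing to the ranges. Fitted without the filter on low counts, edgeR's quasi-likelihood test gave a log2 fold change of -0.66 (unadjusted p = 0.280, adjusted p = 0.993). It was -0.28 without BPA replicate 2 and -1.04 without BPA replicate 1. Pooled per group, 21 counts in vehicle gave 1.10 per 1e+06 counts (exact 95% Poisson interval 0.681 to 1.68) and 11 counts in BPA gave 0.689 (0.344 to 1.23), and these intervals overlapped. Of its 50-base words, 7.36% also occur in other genes, mostly Gm6939, which had 3 to 14 counts per library. A further 4.05% of its exonic bases overlap an exon of the gene listed as Ccdc101 on the opposite strand, which had 44 to 157 counts, and whether strand was used in counting is not stated.

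Gusb (ENSMUSG00000025534.17, chromosome 5, 129989011 to 130003049, minus strand) encodes lysosomal beta-glucuronidase, which removes glucuronic acid from conjugates. Of the 7 genes tested it had the log2 fold change furthest from 0. Its level was 9.85, 6.90 and 8.87 CPM in vehicle and 6.12, 8.29 and 4.67 CPM in BPA. The ranges overlapped, since BPA replicate 2 lay above vehicle replicate 2. The means were 8.54 ± 1.51 and 6.36 ± 1.82 CPM (SD, n = 3 each), and the log2 fold change was -0.38 (SE 0.242, 95% interval -0.89 to 0.14). By edgeR's quasi-likelihood test the unadjusted p was 0.139 and the adjusted p 0.9998, so the difference did not exceed the spread between fetuses. Without BPA replicate 2 the log2 fold change was -0.62 (unadjusted p = 0.0355, adjusted p = 0.995, same edgeR test), and it was -0.24 without BPA replicate 3 and -0.25 without vehicle replicate 1. BPA replicate 3, the lowest library for Gusb with 16 counts, was also the shallowest. Summed microglia markers, which come from lysosome-rich cells, were 58.7 to 76.9 CPM in vehicle and 64.5 to 70.4 CPM in BPA. In bulk tissue, fewer cells of a type cannot be told apart from less RNA per cell.

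**Figure D2:**
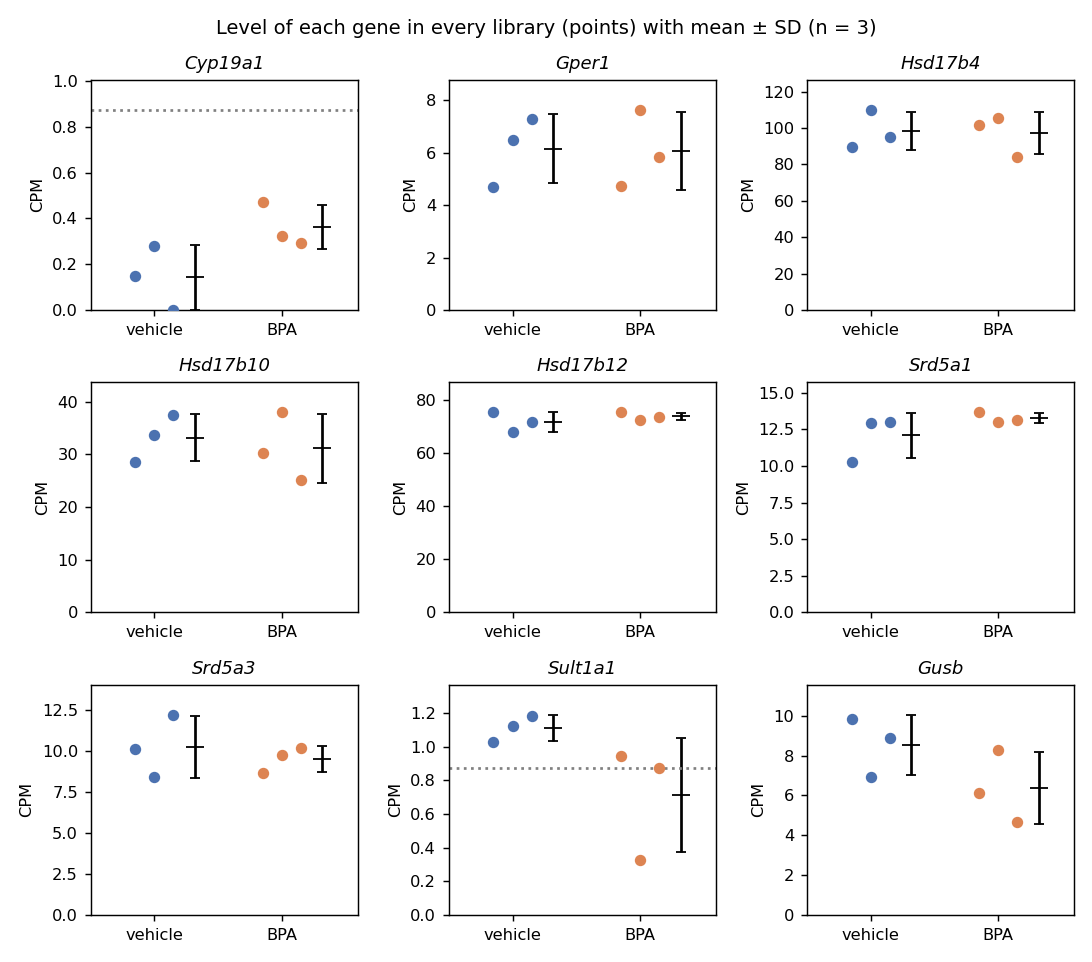
Level of each of the 9 genes in CPM on an axis from 0, with 1 point for each library and the mean ± SD (n = 3) beside each group; the dotted line for Cyp19a1 and Sult1a1 marks 0.875 CPM, the floor of the shallowest library. The groups overlap for the 7 genes tested, while Cyp19a1 lies below the line in every library, where its BPA values from 1 to 3 counts sit just above its vehicle values from 0 to 2 counts.

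Over the set, 0 of the 7 tested genes reached an unadjusted p under 0.05, against 2.2% of the 13741 genes tested (1.02% higher and 1.18% lower in BPA). Likewise 0 had groups that did not overlap, against 6.75% of all genes (3.19% higher and 3.56% lower). None of the 7, and 0% of all 13741 genes, passed the adjusted threshold of 0.1 by edgeR's quasi-likelihood test; over all genes 302 had an unadjusted p under 0.05, and the adjusted threshold was passed by 3 genes with DESeq2 and by 0 with limma-voom, none of them from this set. The fold change was below 0 for 5 of the 7 genes and for 49.5% of all genes, but for 4 of those 5 (Gper1, Hsd17b4, Hsd17b10 and Srd5a3) it turned above 0 in at least 1 of the fits that left out a library. The median log2 fold change was -0.011 for the 7 genes and 0.0016 for all, and the median size was 0.068 against 0.089. Gusb ranked at the 93.8th percentile of all genes by size of log2 fold change, and Gper1 and Hsd17b4 at the 3.95th and the 7.58th.

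**Figure D3:**
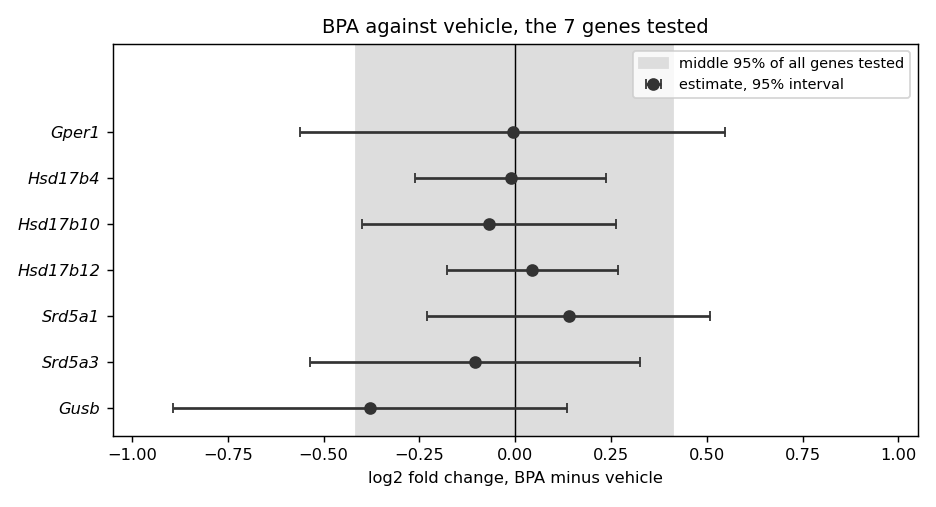
Log2 fold change of BPA minus vehicle for the 7 genes tested, with 95% intervals; the grey band holds the middle 95% of all genes tested, from -0.41 to 0.41. Every interval includes 0, and the widest are those of Gper1 and Gusb.

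Among individual libraries the genes did not move as a block. BPA replicate 3 was lowest for 3 of the 7 tested genes, vehicle replicates 1 and 2 for 2 each, and the highest library was spread over 5 of the 6. In BPA replicate 3, Gusb was 0.60 and Hsd17b10 0.34 below their own means in log2 CPM, whereas Srd5a1, Srd5a3 and Hsd17b12 were 0.055, 0.053 and 0.021 above theirs. Gper1 was 0.33 below its mean in vehicle replicate 1 and in BPA replicate 1 alike. Spread beyond counting error was seen mainly for Hsd17b4, with a coefficient of variation of 10.0% over 6 libraries against 4.16% from counting, Hsd17b10 (15.9% against 7.27%) and Gusb (25.7% against 14.99%).

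**Figure D4:**
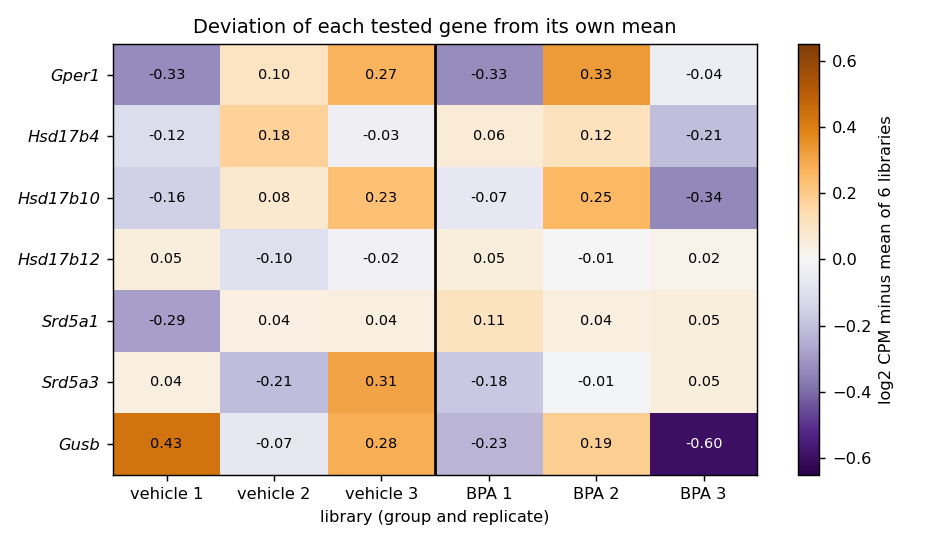
Deviation of log2 CPM from the mean of the 6 libraries for each tested gene, written in each cell, with the vehicle libraries left of the black line and the BPA libraries right of it. The largest deviation is that of Gusb in BPA replicate 3, at -0.60, and the row of Hsd17b12 is nearly flat.

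The genes most alike in their pattern were searched among those averaging at least 10 CPM, by Pearson correlation of log2 CPM over the 6 libraries, as a description without a test. They were Pja1 (r = 0.995) and Itm2a (0.993) for Gper1, Stk24 (0.994) and Pik3r2 (0.993) for Hsd17b4, and Med21 (0.991) and Sucla2 (0.987) for Hsd17b10. For Hsd17b12 they were Arhgef7 (0.991) and Scaf11 (0.987), for Srd5a1 Per2 (0.988) and 2410015M20Rik (0.983), for Srd5a3 Igfbpl1 (0.994) and Psma5 (0.990), and for Gusb Pnrc2 (0.994) and Coprs (0.980). From 0.699% to 3.31% of the 10009 or 10010 genes searched exceeded r = 0.9 with a given gene, over 6 points that share their libraries and depth.

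Other genes of the same pathways were then examined as 10 lists with 140 genes, of which 139 were in the table and 78 could be tested. Of these 78, 35 were higher and 43 lower in BPA. Their median log2 fold change was -0.0089, against 0.0016 for all genes. An unadjusted p under 0.05 was reached by 1 gene (1.28%, against 2.2% of all), and 6 genes (7.69%, against 6.75%) had groups that did not overlap. None passed the adjusted threshold.

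For steroid synthesis, 7 of 19 genes were tested and 7 never exceeded 3 counts. The most abundant was Por, at 107 ± 18.4 CPM in vehicle and 104 ± 8.66 in BPA (SD, n = 3 each). Its product supplies electrons to the cytochrome P450 enzymes of the endoplasmic reticulum. Named after their values were seen, Cyp11a1, the first enzyme of steroid synthesis from cholesterol, had 0 to 5 counts, Cyp17a1 had 0 to 1 and Hsd17b1, the main estradiol-forming enzyme of the ovary, had 0 to 5. Star, which carries cholesterol to that first enzyme, had 25 to 37 counts. Hsd17b7, another 17-beta hydroxysteroid dehydrogenase gene of this list, also named after its values were seen, had 125 to 241 counts. Of 19 genes of steroid interconversion and inactivation, 12 never exceeded 3 counts and 3 were tested, led by Hsd17b11 at 9.40 ± 0.376 CPM in vehicle and 8.94 ± 1.95 in BPA. The 12 include Hsd17b8, listed as H2-Ke6, which had 1 to 3 counts but shares 86.4% of its exonic bases with exons of another gene on the same strand, so that its counts do not measure its transcription.

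For conjugation, genes that supply the cofactors were present, while most listed transferases had at most 3 counts in every library. Papss1, which makes the sulfate donor, was at 125 ± 7.52 CPM in vehicle and 120 ± 8.79 CPM in BPA, and Ugdh, which makes UDP-glucuronic acid, at 53.6 ± 5.68 and 55.2 ± 6.74 CPM (SD, n = 3 each). In every library, 8 of 14 sulfation genes and 15 of 18 glucuronidation genes had at most 3 counts, and the 15 were all the UDP-glucuronosyltransferases on the list. The Ugt1a genes share their last exons, and 50.3% to 60.6% of their exonic bases lie in exons of another gene on the same strand, as do 98.8% of those of Ugt2a1, so that low counts or a count of 0 do not measure the transcription of these genes. Sult4a1, a sulfotransferase of brain neurons with no known substrate, named after its values were seen, had 391 to 769 counts and a mean of 43.3 CPM per kilobase, far above Sult1a1 at 0.606.

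Estrogen receptors and the signalling partners of the membrane receptor gave 18 tested genes of 21, 6 higher and 12 lower in BPA. Gnb1, a G protein beta subunit, was the most abundant at 1201 ± 90.1 CPM in vehicle and 1163 ± 85.7 in BPA (SD, n = 3 each). The nuclear estrogen receptor genes Esr1 and Esr2, named after their values were seen, had 0 to 3 counts each. The adenylyl cyclase genes Adcy3 and Adcy5 did not overlap between the groups, Adcy3 higher in BPA (log2 fold change 0.14, SE 0.133) and Adcy5 lower (-0.14, SE 0.10), both with adjusted p = 0.9998 by edgeR's quasi-likelihood test.

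The lists around the second roles of these enzymes were detected almost in full. For peroxisomal beta-oxidation, which HSD17B4 serves, 3 of 10 tested genes were higher and 7 lower in BPA. Scp2, the sterol carrier protein and thiolase gene, was at 49.6, 49.6 and 52.3 CPM in vehicle and at 44.8, 41.4 and 40.8 CPM in BPA. The Scp2 groups did not overlap, and edgeR's quasi-likelihood test gave a log2 fold change of -0.25 (SE 0.111, 95% interval -0.48 to -0.012, unadjusted p = 0.0407, adjusted p = 0.9998). Pex7, the import receptor for a peroxisomal thiolase, also did not overlap and was higher in BPA (log2 fold change 0.41, SE 0.204, adjusted p = 0.9998).

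For fatty acid elongation, which HSD17B12 serves, 6 of 10 tested genes were higher and 4 lower, and the most abundant, Tecr, averaged 299 CPM in each group. Of the 2 partners of HSD17B10 in mitochondrial RNase P, Trmt10c was at 17.1 ± 1.55 CPM in vehicle and 18.3 ± 1.29 CPM in BPA. All 7 tested genes of dolichol synthesis, the pathway of SRD5A3, had fold changes below 0, as did 49.5% of all genes, from -0.24 to -0.011 on the log2 scale. Their median of -0.062 was smaller in size than the median size over all genes (0.089), and 0 had groups that did not overlap, against 6.75% of all genes. Nus1, a subunit of the enzyme that builds the dolichol chain, was the most abundant at 69.6 ± 17.6 CPM in vehicle and 66.3 ± 8.67 in BPA (SD, n = 3 each). Among 14 lysosomal glycosidases other than GUSB, 10 were higher and 4 lower in BPA, with a median of 0.053 against -0.38 for Gusb itself. Fuca1 and Idua, the glycosidases for fucose and iduronic acid residues, did not overlap and were higher in BPA, with log2 fold changes of 0.23 (SE 0.137) and 0.43 (SE 0.234), each with adjusted p = 0.9998 by edgeR's quasi-likelihood test. Gaa, the most abundant glycosidase, was at 87.6 ± 5.36 and 88.4 ± 0.403 CPM (SD, n = 3 each).

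**Figure D5:**
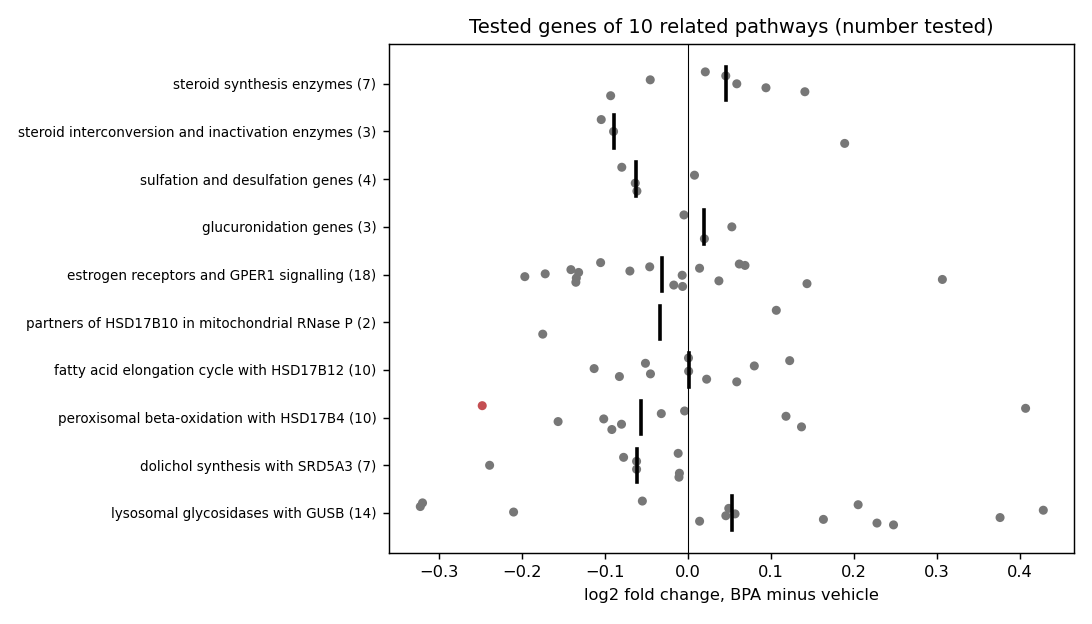
Log2 fold change of BPA minus vehicle for each tested gene (points) of the 10 pathway lists, with the number tested after each name and the median as a black bar. Medians lie between -0.090 and 0.053, and the 1 red point, Scp2, is the gene with an unadjusted p under 0.05.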

How the data were processed

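Per the labels and the study's methods, strand-specific libraries of cortical RNA from 6 fetuses gave 50-base single-end reads, which the authors aligned to GRCm38 with TopHat 2.0.14 and assigned to Gencode genes with featureCounts. The deposited values are raw read counts per gene symbol, whose strand and multi-mapping options are not stated. Groups came from the treatment label, and replicates were numbered 1 to 3 in accession order, which pairs no samples. Counts were analysed in R 4.3.3 with edgeR 4.0.16: filterByExpr (minimum count 10, minimum total 15) kept 13741 genes with 99.7% of the counts, TMM factors scaled the libraries, and the quasi-likelihood test compared BPA with vehicle with no covariate, p-values being adjusted over all genes (Benjamini-Hochberg, threshold 0.1). Standard errors are those implied by the test statistic, and log2 CPM values used a prior count of 2. Lengths, exon overlaps and 50-base transcript words came from GENCODE M21 (GRCm38), which matched all 9 genes, and start windows from RefSeq. Alternatives were DESeq2 1.42.0, limma-voom (limma 3.58.1), other scalings, no filter and omission of each library; omission of libraries in the unfiltered fit of Sult1a1 was added after seeing the data. Code for the main edgeR fit was tested on simulated data with known changes, and the alternatives were not tested in that way. The genes, the pathway lists and the marker lists were chosen with earlier results of these data known. From each pathway list the text names the gene with the highest mean CPM and any gene at an unadjusted p under 0.05, and for likeness the 2 best matches of each tested gene. A single gene that this rule names is not reported here. Marker lists are given as sums and counts. Others are said to be named after their values were seen, as are the genes whose groups did not overlap. Of 140 pathway symbols, Sts was not analysed here, and Hsd17b8 and Prorp were matched through RefSeq synonyms.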

Additional observations from a re-analysis of the deposited data

How the results depend on the processing

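The 7 tested genes under 11 alternatives, and Sult1a1 with each library left out, gave 83 fold changes, of which 73 kept their direction and 10 reversed, and none passed the adjusted threshold in edgeR, DESeq2 or limma-voom, the smallest adjusted p being 0.920. The reversals belonged to Gper1, Hsd17b4, Hsd17b10 and Srd5a3. Gper1 was 0.00026 with library size alone. With 1 library left out the log2 fold change ran from -0.24 to 0.17 for Gper1 and from -0.076 to 0.081 for Hsd17b4. In the same fits it ran from -0.24 to 0.045 for Hsd17b10 and from -0.23 to 0.024 for Srd5a3. That of Gusb stayed below 0, from -0.62 to -0.24, and those of Hsd17b12 (0.0076 to 0.084) and Srd5a1 (0.033 to 0.20) stayed above. Leaving out 1 library gave from 0 to 1 of these genes an unadjusted p under 0.05, the 1 being Gusb without BPA replicate 2. Over all genes, those past the adjusted threshold numbered 3 with DESeq2, 19 with no filter, which tested 23501 genes, and 0 to 1 with 1 library left out (1 without vehicle replicate 3 or BPA replicate 2). Those at an unadjusted p under 0.05 numbered 126 with DESeq2, 620 with no filter and 194 to 708 with 1 library left out (708 without vehicle replicate 2, 563 without BPA replicate 2, 194 without vehicle replicate 3 or BPA replicate 1). The cause was not tested. With library size alone, the level per kilobase of all 9 genes moved by less than 1 SD. No paired analysis was possible because the labels give the groups no shared replicate numbers. Depth limits Cyp19a1 and Sult1a1, at 0 to 8 counts per library.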
